A study of Rattus norvegicus with 3 samples.

Results

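The 10 genes described here encode enzymes and subunits that write or erase 2 repressive chromatin marks: Ezh1, Ezh2, Eed, Suz12 and Jarid2 of Polycomb repressive complex 2 (PRC2), the DNA methyltransferases Dnmt1, Dnmt3a and Dnmt3b, and the 5-methylcytosine dioxygenases Tet1 and Tet3. They were chosen by name, as 10 of the 29772 genes listed in the deposited matrices, and all 10 were found there. Their molecules were counted in classes of progenitors and neurons of the embryonic rat cortex (Rattus norvegicus). The cells came from 3 single-cell RNA libraries, labelled embryonic day 14, 16 and 18 (E14, E16 and E18), with 1 library per label and so no replicate.

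The cerebral cortex of wild-type embryos was dissociated with papain for all 3 libraries, and the primary cells were used fresh, with no treatment or genetic change in any group. Libraries were prepared with the 10x Genomics 3′ chemistry, which counts unique molecular identifiers (UMIs) near the 3′ end of polyadenylated RNA. The labels do not say how many embryos or litters were pooled. The protocol text also speaks of an expansion culture, sample multiplexing and a sort for live human cells, steps that would not apply to primary cells of the rat, so it is not known what was done of them. Filtering left 4286 cells labelled E14, 4977 labelled E16 and 5431 labelled E18, with medians of 11199.5, 12264 and 10477 UMIs. The libraries shared 12 to 17 cell barcodes pairwise, of which 7 or 8 were among the cells kept.

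PRC2 places methyl groups on lysine 27 of histone H3 (H3K27). Ezh2 and Ezh1 are its alternative catalytic subunits, Eed binds the methylated product, Suz12 is the scaffold, and Jarid2 is an accessory subunit of one form of the complex. Dnmt1 copies CpG methylation onto the new strand after replication, Dnmt3a and Dnmt3b methylate unmarked sites, and the Tet enzymes oxidise 5-methylcytosine as a first step of its removal. In the developing cortex Ezh2 is known for a part in timing the change of radial glia, the stem cells of the ventricular zone, from neuron to glia production. Dnmt1 is known for maintaining methylation in dividing progenitors, and Dnmt3a for methylating the genome of neurons, most of all after birth.

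Promoter windows of 300 bases, 250 before and 50 after an annotated start, from RefSeq (build GRCr8) were used for 8 of the 10 genes. Those of Ezh1 and Dnmt3b were not analysed here. The 8 genes had 13 windows in all, 3 of them of Tet1 and 4 of Tet3, which were searched on both strands for 4 octamers of the kind bound by E2F, the factors that drive S-phase genes: TTTCCCGC, TTTCGCGC, TTTGCCGC and TTTGGCGC. They were also searched for TTTGAA, the core of the cell cycle genes homology region, which shares no full match with the octamers. The 3 windows that held an E2F-type octamer are shown because their genes, Ezh2, Suz12 and Dnmt1, were among those with higher levels in S or G2M reported further on. The window of Jarid2, whose levels ran otherwise, is given beside them. Motif and phase did not go together in every member: Eed was also higher in S and G2M, by 2.10 and 2.13 times G1 in radial glia labelled E18, and its window held neither motif. All are printed 5′ to 3′ on the gene's own strand, with the octamer in capitals.
Ezh2: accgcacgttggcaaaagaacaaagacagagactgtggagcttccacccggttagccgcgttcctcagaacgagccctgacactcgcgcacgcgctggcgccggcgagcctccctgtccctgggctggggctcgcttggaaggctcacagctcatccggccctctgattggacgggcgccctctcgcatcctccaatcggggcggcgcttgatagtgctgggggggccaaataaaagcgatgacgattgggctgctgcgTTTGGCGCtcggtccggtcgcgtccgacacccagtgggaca
Suz12: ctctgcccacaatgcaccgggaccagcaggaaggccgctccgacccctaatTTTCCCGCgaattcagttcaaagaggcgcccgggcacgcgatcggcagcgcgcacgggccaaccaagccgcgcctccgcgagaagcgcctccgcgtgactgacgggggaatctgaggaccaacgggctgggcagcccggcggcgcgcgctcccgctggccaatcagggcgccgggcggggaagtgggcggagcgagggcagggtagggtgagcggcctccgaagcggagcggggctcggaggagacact
Dnmt1: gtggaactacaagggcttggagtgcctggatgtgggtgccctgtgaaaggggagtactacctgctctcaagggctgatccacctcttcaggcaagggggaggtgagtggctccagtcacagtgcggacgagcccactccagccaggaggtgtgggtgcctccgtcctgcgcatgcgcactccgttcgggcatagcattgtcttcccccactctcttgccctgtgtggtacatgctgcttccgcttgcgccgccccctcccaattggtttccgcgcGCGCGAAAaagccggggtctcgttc
Jarid2: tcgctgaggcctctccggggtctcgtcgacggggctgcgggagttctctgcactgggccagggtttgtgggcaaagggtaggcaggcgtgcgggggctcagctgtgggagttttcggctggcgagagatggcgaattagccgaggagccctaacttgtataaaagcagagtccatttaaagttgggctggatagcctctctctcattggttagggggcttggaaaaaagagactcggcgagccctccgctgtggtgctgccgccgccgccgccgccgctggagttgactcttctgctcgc

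The Ezh2 window lies at chr4:77687134-77687433 on the minus strand, with its octamer on the gene's strand from base 10 after the start. The Suz12 window lies at chr10:65464719-65465018 on the plus strand, with its octamer on the gene's strand at -199 and a TTTGAA on the other strand at -183. The Dnmt1 window lies at chr8:27762792-27763091 on the minus strand, with its octamer on the other strand from base 26. The Jarid2 window, at chr17:20161921-20162220 on the minus strand, held none of the motifs. None of the windows of Eed, Dnmt3a, Tet1 or Tet3 held an E2F-type octamer. Of 33469 rat windows of this length, 2.14% held such an octamer and 18.3% held TTTGAA. A match describes letters in a window and is not evidence that a factor binds there.

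Cells were grouped into 24 clusters, of which 22 took a class name from marker genes. Radial glia (362, 2965 and 1756 cells in label order) and intermediate progenitors (490, 413 and 1134 cells), the Eomes-marked daughters of radial glia, were present in all libraries. In radial glia all 11 markers of that class were detected, with summed levels of 10400, 4210 and 5914 CPM (UMIs per 1000000). Newborn excitatory neurons (1343 and 1872 cells) and maturing excitatory neurons (1988 and 369 cells) came from the libraries labelled E14 and E18. In this clustering of all libraries together, the library labelled E16 had only 3 cells named as newborn neurons and none named as maturing. Its neurons formed an unnamed cluster led by Calb1, Calb2 and Lhx9, with 598 of its 604 cells from that library. They are called Calb2- and Lhx9-led neurons here and stand in for early neurons of that label, a choice made after their genes had been seen. The class whose markers scored best in that cluster was the Cajal-Retzius cell, an early marginal zone neuron, with only 1 marker raised, too few for the name. Its Cajal-Retzius markers, 7 of 7 measured ones detected, summed to 311 CPM, against 10.9 and 17.4 CPM in newborn neurons labelled E14 and E18. Its 7 newborn neuron markers summed to 1843 CPM, against 2746 and 3129 CPM there, and its 8 intermediate progenitor markers to 2034 CPM against 2288 and 1671 CPM. Its 12 maturing neuron markers summed to 5085 CPM, above the 3345 and 3783 CPM of newborn neurons and below the 7080 and 9051 CPM of maturing neurons. Stmn2, 1 of them, was at 3311 CPM, against 1674 and 1988 CPM in newborn and 3263 and 4203 CPM in maturing neurons. Each statement below on early neurons of all 3 libraries rests in part on this group. The naming depended on the settings. With libraries clustered singly, 317 cells labelled E16 were named newborn neurons and 221 fell in the unnamed neuron group. The other alternatives named from 1 (Leiden resolution 2) to 40 (Leiden resolution 0.5) newborn neurons of that label. At most 48 were named maturing, under the looser cell filter. By phase calls from cell cycle genes, in cells thinned to 2000 UMIs, 77.1%, 96.0% and 88.6% of radial glia and 44.5%, 92.4% and 65.7% of intermediate progenitors were called S or G2M. Of newborn neurons 3.2% and 5.2% were called so, and of the Calb2- and Lhx9-led neurons 9.8%. The neurons within 0.05 of a phase boundary outnumbered these, at 18.15%, 18.6% and 23.4%, so the calls in neurons are not read as cycling.

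Levels of genes that mark developmental stage followed another order than the labels, so each direction below is between libraries as labelled. In radial glia Hmga2, a gene of early stem cells, was at 13.0 CPM labelled E14, 223 CPM labelled E16 and 21.5 CPM labelled E18, and Aldoc, a gene of glial progenitors, was at 735, 17.2 and 241 CPM. Tnc was at 124, 0.175 and 7.37 CPM. Markers of neighbouring classes also differed in the radial glia class: the 12 markers of maturing neurons, 11 of them detected in each library, summed to 385, 187 and 146 CPM. The 5 of astrocytes summed to 28.6, 1.47 and 6.81 CPM, with 5, 3 and 3 detected. Their part in the differences between libraries was not tested. In these summed counts, fewer cells with a transcript and fewer copies per cell cannot be told apart.

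The catalytic subunit Ezh2 had its highest level of the 4 main classes in intermediate progenitors, not in radial glia, in each library. Its level in radial glia was 363 CPM (347–379) in the library labelled E14, 490 CPM (483–496) in that labelled E16 and 475 CPM (467–484) in that labelled E18. These and all later ranges in parentheses after a level are exact Poisson 95% intervals and cover counting error only. In intermediate progenitors it was 489 CPM (471–508), 772 CPM (747–797) and 689 CPM (675–704), so the intervals of the 2 classes did not overlap in any library. Early neurons were lower, at 230 CPM (221–239) in newborn neurons labelled E14, 307 CPM (292.5–322) in the Calb2- and Lhx9-led neurons and 286 CPM (278–294) in newborn neurons labelled E18. Maturing neurons were lower again, with 151 CPM (146–155) in the library labelled E14 and 211 CPM (198.5–224) in that labelled E18. The log2 ratio of early neurons over radial glia, with 1 CPM added, was -0.66, -0.67 and -0.73 in label order, short of 2-fold in each.

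The scaffold Suz12 and the product reader Eed were lower still in neurons, relative to radial glia, than the catalytic subunit. Suz12 was at 119, 199 and 177 CPM in radial glia and at 95.8, 141 and 141 CPM in intermediate progenitors. It was at 44.7 CPM in newborn neurons labelled E14, 49.6 CPM in the Calb2- and Lhx9-led neurons and 50.5 CPM in newborn neurons labelled E18. The log2 ratios over radial glia were -1.40 (-1.58 to -1.25), -1.98 (-2.18 to -1.83) and -1.79 (-1.92 to -1.71). Ranges after a ratio are conditional exact binomial intervals of the ratio of counts, with nothing added. Eed was at 37.9, 56.5 and 54.8 CPM in radial glia and at 16.7, 15.6 and 18.6 CPM in early neurons, with log2 ratios of -1.14 (-1.47 to -0.89), -1.79 (-2.18 to -1.54) and -1.51 (-1.74 to -1.39). For both genes the early neuron levels of the 3 libraries lay closer together than the radial glia levels did, and the groups did not overlap.

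Ezh1, the alternative catalytic subunit, had few counts in these classes and higher levels in neurons. It was at 3.34 CPM (1.98–5.28), 1.42 CPM (1.10–1.81) and 3.00 CPM (2.36–3.77) in radial glia, from 18, 65 and 75 UMIs. It was at 6.69 CPM in newborn neurons and 7.37 CPM in maturing neurons labelled E14, at 4.96 CPM in the Calb2- and Lhx9-led neurons, and at 4.87 and 7.21 CPM in newborn and maturing neurons labelled E18. Ezh2 made up 99.1%, 99.7% and 99.4% of the summed Ezh1 and Ezh2 UMIs in radial glia, 97.2% and 98.3% in newborn neurons and 95.3% (94.7–95.9) and 96.7% (95.5–97.7) in maturing neurons. Shares carry exact Clopper-Pearson 95% intervals. They are read only across classes, since 3′ counts of different genes do not compare as levels of protein or of RNA per length.

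Jarid2 was at a higher level in early neurons than in radial glia in every library, by over 2-fold in those labelled E14 and E18. Its level in radial glia was 13.9 CPM (10.95–17.4), 36.3 CPM (34.6–38.1) and 20.6 CPM (18.9–22.5) in label order. It was 36.7 CPM (33.4–40.4) in newborn neurons labelled E14, 46.7 CPM (41.1–52.8) in the Calb2- and Lhx9-led neurons and 62.4 CPM (58.8–66.3) in newborn neurons labelled E18. The log2 ratios were 1.34 (1.04 to 1.77), 0.35 (0.17 to 0.55) and 1.56 (1.45 to 1.76). The smaller ratio in the library labelled E16 came with the highest radial glia level of the 3, not with a low neuron level. In the library labelled E14 the Jarid2 ratio was under 2-fold in 7 of 11 alternatives of clustering, filtering or pseudocount, and its lowest log2 value was 0.47, at Leiden resolution 2. In that labelled E16 it reached -0.09 at Leiden resolution 0.5. In the library labelled E18 the log2 ratio of Jarid2 lay between 1.24 and 2.23 under the 20 alternatives run.

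Between clusters Jarid2 varied more widely than between classes. Cluster 7, newborn neurons led by Neurod1 and Nhlh1 with 800 of 808 cells labelled E18, had 106 CPM (98.6–115), the highest of any cluster. Newborn clusters 3 (1126 of 1143 cells labelled E14), 5 (983 of 985 labelled E18) and 16 (210 of 282 labelled E14) had 42.5, 35.0 and 25.8 CPM. The intermediate progenitors of cluster 13, led by Ppp1r17 and mitotic genes, had 56.6 CPM (50.5–63.2), against 22.8 and 20.1 CPM in the intermediate progenitor clusters 11 and 6. Maturing clusters 0, 10 and 15 had 12.8, 20.2 and 36.3 CPM, and maturing neurons labelled E14 lay near radial glia of that label, with a class level of 15.9 CPM (14.5–17.4) beside 13.9. Since most clusters came mainly from 1 library, an order along the lineage cannot be told apart from differences between libraries. Clusters 6, 11 and 13 drew on all 3: Jarid2 was at 33.1 CPM (23.0–46.0), 46.3 CPM (36.6–57.7) and 71.8 CPM (62.2–82.4) in cluster 13 in label order. In cluster 11 it was at 9.86, 25.9 and 25.2 CPM and in cluster 6 at 15.6, 11.6 and 23.9 CPM, below cluster 13 in each library. These clusters also differ in cell cycle genes, with histone genes among the leading genes of cluster 11, and the part of phase was not tested. In all, 11 clusters with 60.45% of the cells were over 90% from 1 library.

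**Figure D1:**
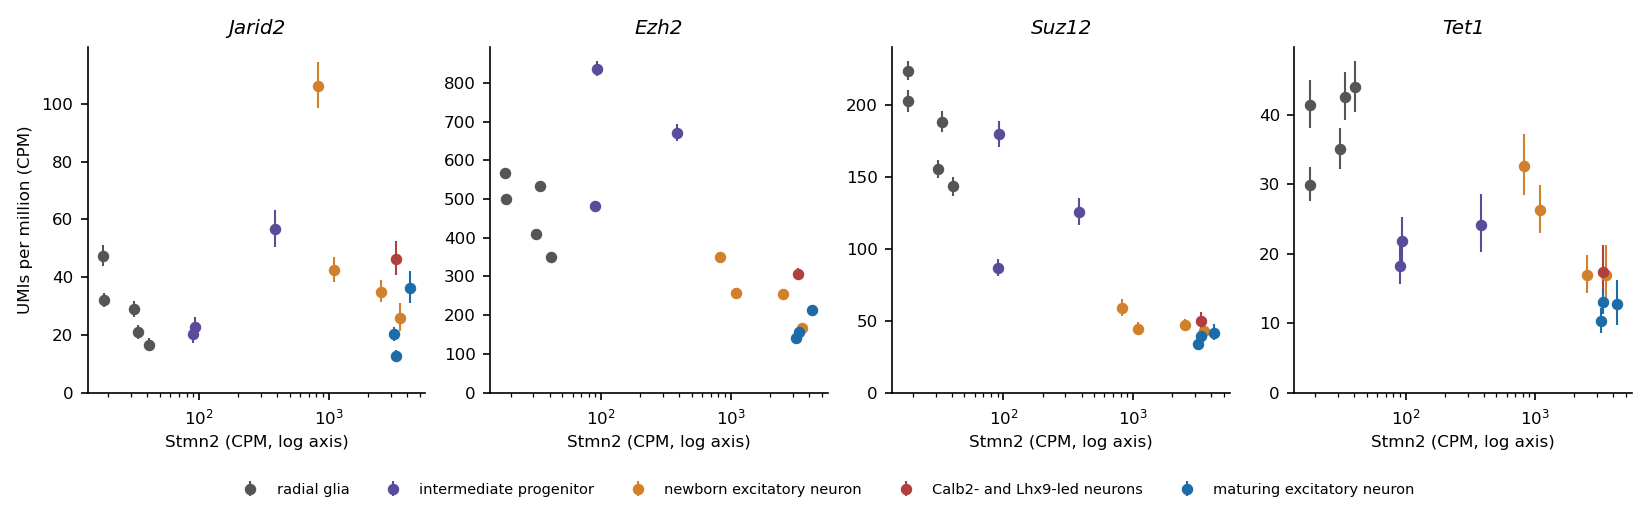
Levels of Jarid2, Ezh2, Suz12 and Tet1 (y axes, CPM, from 0) in each cluster of the 5 progenitor and excitatory neuron groups, against the level of the neuronal gene Stmn2 in that cluster (x axis, CPM, log axis). Points are clusters with cells of all libraries summed, coloured by class, and bars are exact Poisson 95% intervals. Jarid2 peaks at 106 in a newborn neuron cluster with intermediate Stmn2, Ezh2 at 837 in an intermediate progenitor cluster, and Suz12 and Tet1 are highest in radial glia clusters.

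Dnmt1, the maintenance methyltransferase, had nearly the same level in radial glia of each library, at 116 CPM (107–125), 117 CPM (114–121) and 120 CPM (116–125), with overlapping intervals. It was at 82.9, 111 and 105 CPM in intermediate progenitors. Early neurons had 37.9, 32.9 and 38.2 CPM, and maturing neurons 40.0 and 39.9 CPM in the libraries labelled E14 and E18. The log2 ratio of early neurons over radial glia was -1.59 (-1.79 to -1.43), -1.81 (-2.06 to -1.62) and -1.63 (-1.78 to -1.53). The Dnmt1 levels of newborn and maturing neurons had overlapping intervals, while Ezh2 was lower in the maturing class than in the newborn class of both libraries.

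Dnmt3a, a de novo methyltransferase, was at 57.3 CPM (51.1–64.1), 108 CPM (105–111) and 90.4 CPM (86.8–94.3) in radial glia. Its level in intermediate progenitors was already near that of early neurons, with 31.0 CPM (26.6–35.9), 41.2 CPM (35.6–47.4) and 29.9 CPM (26.97–33.0). Early neurons had 21.7, 34.7 and 26.98 CPM, and the log2 ratios over radial glia were -1.36, -1.61 and -1.71. Dnmt3b, known for activity before neural stages, was at 3.57 CPM or less in every progenitor and excitatory neuron class. It made up 3.1%, 3.2% and 2.7% of the summed Dnmt3a and Dnmt3b UMIs in radial glia. The share was 5.8% (2.9–10.2), 5.4% (2.7–9.4) and 7.5% (5.1–10.5) in intermediate progenitors and 7.6% (4.8–11.4) and 7.2% (5.1–9.8) in newborn neurons, with overlapping intervals. In both classes Dnmt3a was lower than in radial glia, and Dnmt3b rested on 11 to 36 UMIs. It was 3.6% (1.4–7.2) in the Calb2- and Lhx9-led neurons and 4.3% (2.8–6.1) and 1.9% (0.40–5.6) in maturing neurons, so no higher share was common to the neuron groups.

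Of the dioxygenases, Tet1 was lower in intermediate progenitors and in neurons than in radial glia, and Tet3 had its highest level in intermediate progenitors among these classes of each library. Tet1 was at 31.6, 34.0 and 45.9 CPM in radial glia and at 23.4 CPM (20.7–26.3), 17.5 CPM (14.1–21.3) and 23.1 CPM (20.9–25.5) in early neurons, with log2 ratios of -0.42, -0.92 and -0.96, all short of 2-fold. Intermediate progenitors, with 21.9 CPM (18.3–26.1), 17.2 CPM (13.7–21.4) and 21.9 CPM (19.4–24.6), had levels that overlapped those of early neurons. In maturing neurons Tet1 was at 11.8 and 13.1 CPM. Tet3 was at 71.4, 91.6 and 99.98 CPM in radial glia, and at 79.5, 100 and 104 CPM in early neurons. Its log2 ratios were 0.15 (-0.02 to 0.33), 0.13 (0.00 to 0.26) and 0.06 (-0.03 to 0.15), so a difference beyond counting error was not detectable at this depth in the libraries labelled E14 and E18. In intermediate progenitors Tet3 was at 90.4 CPM (82.8–98.5), 113.5 CPM (104–123.5) and 115 CPM (109–121), above radial glia of the same library with no overlap of the intervals. In maturing neurons it was at 64.4 CPM (61.5–67.4) and 87.4 CPM (79.5–95.9). Tet1 made up 30.6%, 27.1% and 31.5% of the summed Tet1 and Tet3 UMIs in radial glia, 19.5%, 13.2% and 15.95% in intermediate progenitors, 22.7%, 14.8% and 18.2% in early neurons and 15.5% and 13.0% in maturing neurons.

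**Figure D2:**
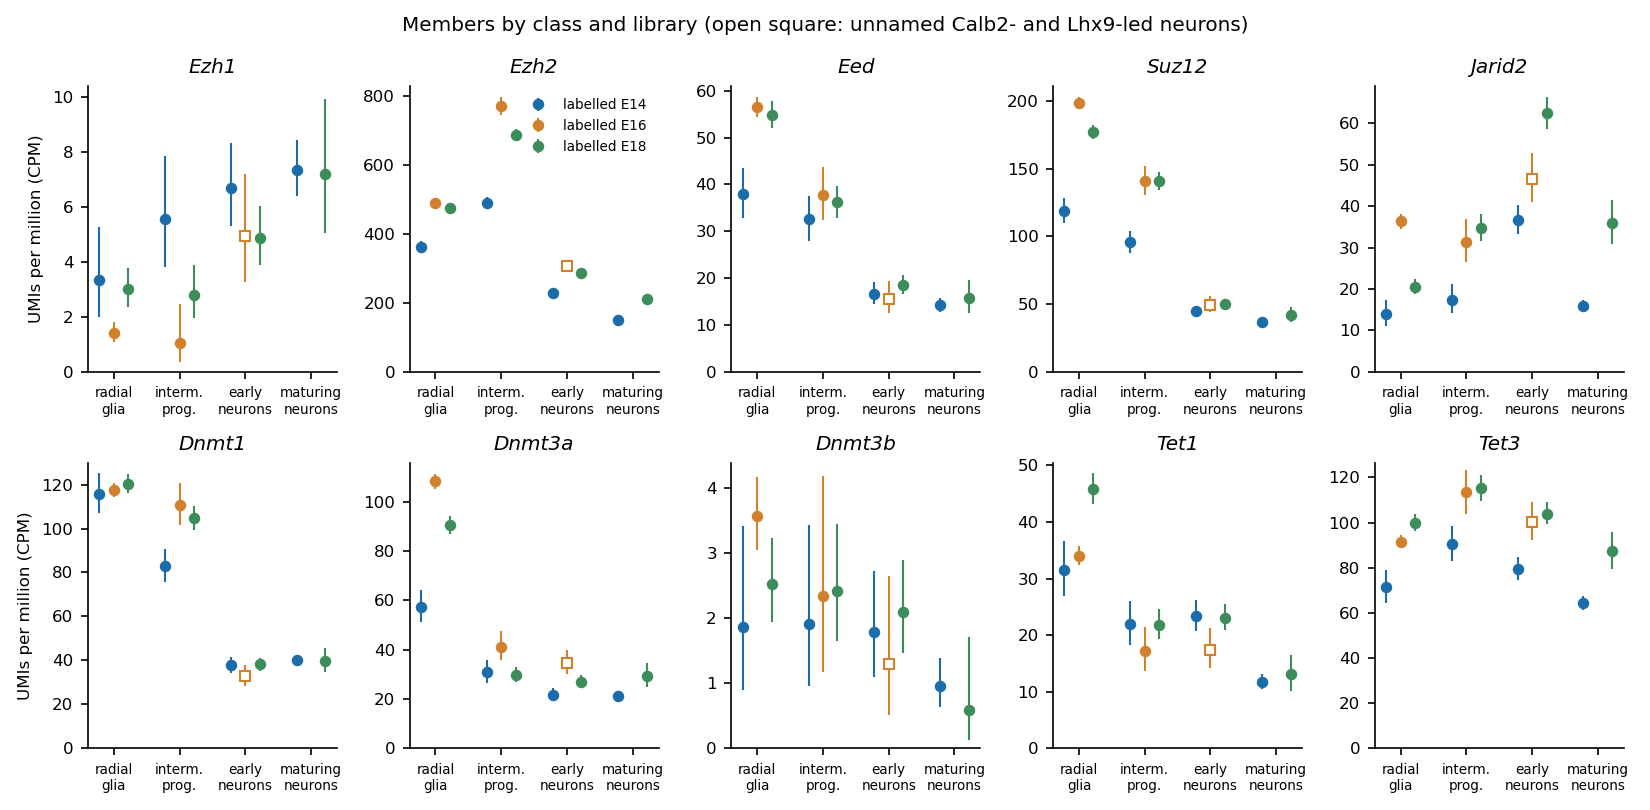
Level of each gene (y axes, CPM, each from 0) in radial glia, intermediate progenitors, early neurons and maturing neurons, by library. Filled circles are named classes, open squares the Calb2- and Lhx9-led neurons of the library labelled E16, and bars are exact Poisson 95% intervals. Ezh2 is highest in intermediate progenitors in all 3 libraries, Dnmt3a is low from that class on, and Jarid2 is higher in early neurons than in radial glia.

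Counted together, Suz12, Eed, Dnmt1 and Dnmt3a were at least 2-fold lower in early neurons than in radial glia in each of the 3 libraries. That is 4 of the 9, 8 and 8 members that averaged at least 5 CPM in the 2 groups compared, beside 18.1%, 16.4% and 17.0% of all genes that passed this minimum. Higher by at least 2-fold was Jarid2 alone, in the libraries labelled E14 and E18, where 12.6% and 12.7% of genes were called, and none of the 8 members in that labelled E16, with 14.1%. Ezh1 there had a log2 ratio of 1.30, from 27 and 65 UMIs, but was under the minimum. The median log2 ratio of the members that passed was -0.66, -1.27 and -1.24, beside -0.13, -0.07 and -0.09 over all genes tested. With 1 library per label no test across replicates was possible, and calls here only mean past 2-fold. Under the stricter cell filter, which left 130 radial glia and 57 newborn neurons labelled E14, none of the 4 was past 2-fold lower in that library: Dnmt3a had -0.99, Dnmt1 -0.74, Suz12 -0.30 and Eed -0.23, and Ezh2 turned to 0.35. Suz12 labelled E18 had -0.95 under it.

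Cell cycle genes set a scale for these differences. All 18 replication genes and all 8 mitosis genes on the lists were at least 2-fold lower in early neurons in all 3 libraries. Under the stricter cell filter the median log2 ratio of the mitosis genes labelled E14 turned to 0.27 and that of the replication genes was -0.73, so the cell cycle contrast was lost or weaker there along with the calls of the 4 members. Top2a, a mitotic topoisomerase, was at 752, 711 and 725 CPM in radial glia and 6.35, 14.9 and 9.28 CPM in early neurons, log2 ratios of -6.68, -5.49 and -6.14. Genes of the stress that dissociation causes differed by library: in early neurons 4 of 6 tested were past 2-fold higher and 1 lower labelled E14 (median log2 ratio 1.23), 1 of 5 higher and 1 lower labelled E16 (0.66), and 1 of 7 higher and 3 lower labelled E18 (-0.30). Dusp1 was higher and Jun lower in each. Their part in the class differences was not tested. Each member's log2 ratio was closer to 0 than that of Top2a in the same library. How much free RNA adds to any level was not tested. Doublet removal was varied: with none and with 2 times the number removed, the Jarid2 ratio labelled E14 fell short of 2-fold. The newborn class labelled E14 also changed, from 1343 cells to 1201 and 990. In these settings 566 and 517 cells labelled E14 fell in unnamed neuron clusters, against 1 before. The part of doublets and of class membership was not tested.

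**Figure D3:**
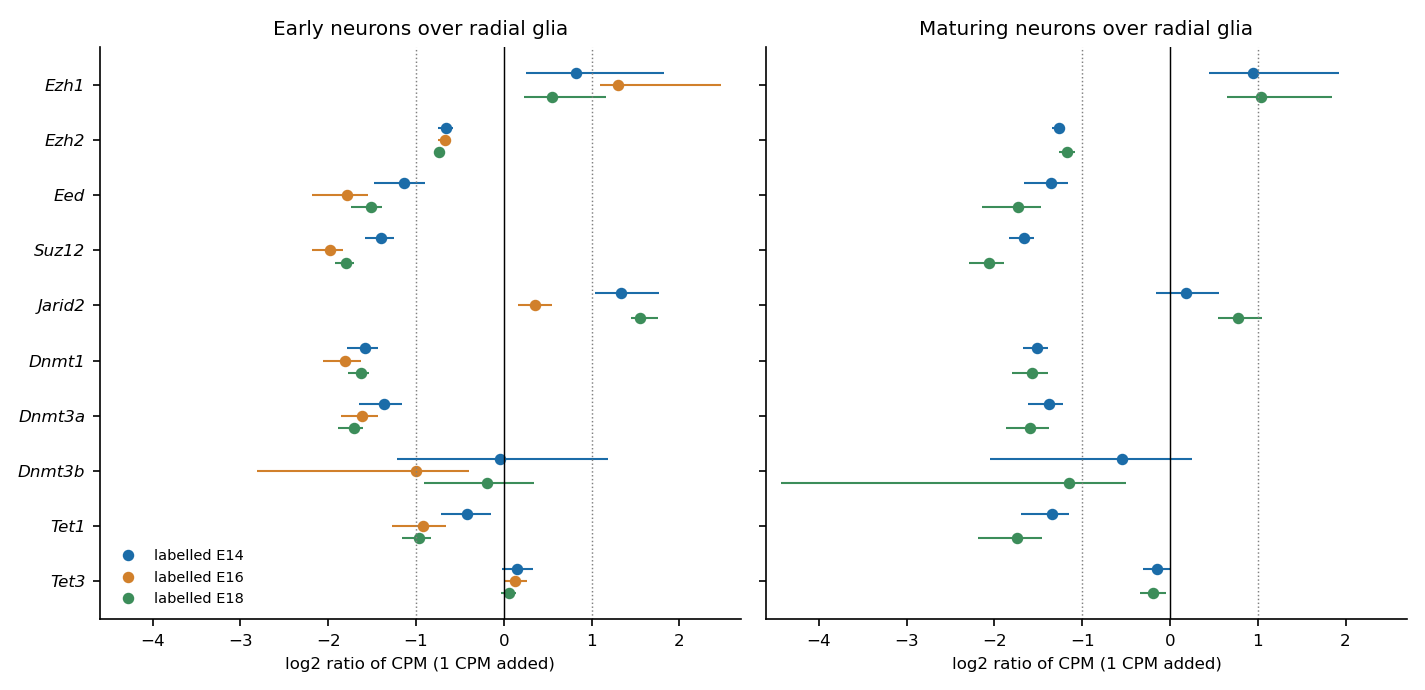
Log2 ratio of CPM, with 1 CPM added, of early neurons over radial glia (left) and of maturing neurons over radial glia (right) for the 10 genes, coloured by library. Points are ratios of 1 library each, lines are conditional exact binomial 95% intervals of the ratio of counts with nothing added, and dotted lines mark 2-fold. Suz12, Eed, Dnmt1 and Dnmt3a lie below -1 in every library and in both panels, and Ezh2 and Tet1 do so only in maturing neurons.

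Maturing neurons, present in the libraries labelled E14 and E18, had more members at lower levels. Against radial glia, 6 of 9 members were at least 2-fold lower in each: the 4 above, Ezh2 (log2 ratios -1.26 and -1.17) and Tet1 (-1.35 and -1.74). The share of all genes called lower was 22.1% and 21.0%. Suz12 had the lowest ratio of the members in both, at -1.66 and -2.06. Jarid2 had 0.18 (-0.16 to 0.56) and 0.77 (0.55 to 1.05), and Ezh1 had 0.95 and 1.04, the latter the 1 member past 2-fold higher in the library labelled E18, where 17.5% of genes were. None of 9 was past 2-fold higher labelled E14, where 13.8% of genes were. Dissociation stress genes in the same contrast had a median log2 ratio of 0.22 labelled E14, with 1 of 5 past 2-fold lower and 2 higher. Labelled E18 their median was -1.74, with 3 of 6 past 2-fold lower and 1 higher, and their part in the members' differences was not tested.

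Partners of these enzymes, from lists drawn up by function, are described by how many of the genes tested in all 3 libraries were past 2-fold the same way in early neurons against radial glia. Of all 9452 genes tested in each library, 11.9% were lower in all 3 and 8.76% higher in all 3. Of the 8 members so tested, 4 were lower and 0 higher. A count of 1 in these short lists is therefore not read as a result about the list. Of 5 PRC2 partners, 2 were lower: Rbbp7, a histone chaperone, with a median log2 ratio of -1.47, and Aebp2, an accessory subunit, with -1.28. Mtf2, which recruits PRC2 to CpG islands, was not past 2-fold and had log2 ratios of 0.77, 0.56 and 0.67. Of the 2 H3K27 demethylases, Kdm6b was higher, at 151, 137 and 158 CPM in early neurons against 46.2, 56.7 and 55.8 CPM in radial glia, and Kdm6a was not past 2-fold. Of 20 PRC1 genes, the complex that binds methylated H3K27 or ubiquitinates histone H2A, Pcgf5 was lower (median -3.30) and Pcgf3 higher (1.16).

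Of 4 DNA methylation partners tested, 2 were past 2-fold lower. Uhrf1, which brings Dnmt1 to hemimethylated DNA, was at 105, 146 and 123 CPM in radial glia and at 2.45, 9.003 and 4.87 CPM in early neurons. Its log2 ratios, -4.94, -3.88 and -4.40, lie well below those of Dnmt1. Hells, a remodeller that aids methylation, had a median of -4.15. Of 5 demethylation genes Tet2 was higher, at 48.9, 34.9 and 42.5 CPM in early neurons against 20.4, 16.4 and 19.7 CPM in radial glia, while Tet1 was lower and the ratio of Tet3 was near 0. Of 6 methyl-CpG readers, Mbd4, a glycosylase, was lower with a median of -1.78.

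Within progenitors, Dnmt1, the PRC2 core genes, Jarid2 and Dnmt3a each had their own profile over cell cycle phase. Dnmt1 was highest in S phase: in radial glia called G1, S and G2M it was at 57.1, 183 and 105 CPM labelled E14, 70.8, 147 and 99.9 CPM labelled E16, and 53.4, 160 and 104 CPM labelled E18. In intermediate progenitors it was at 29.9, 174 and 109 CPM labelled E14, 48.5, 157 and 101 CPM labelled E16, and 35.6, 162 and 113 CPM labelled E18. It was at least 2-fold higher in S than in G1 in all 6 of these. The Dnmt1 level of newborn neurons, 37.9 and 38.2 CPM, lay beside that of intermediate progenitors in G1, at 29.9 (labelled E14) and 35.6 CPM (labelled E18).

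Ezh2 and Suz12 were higher in S and in G2M than in G1, with ratio intervals above 0 in both classes and all libraries. Eed had the same order, but its interval included 0 in radial glia labelled E14 and in intermediate progenitors labelled E16. In radial glia called G1, S and G2M, Ezh2 was at 158, 363 and 422 CPM labelled E14, 272, 479 and 508 CPM labelled E16, and 226, 466 and 522 CPM labelled E18. In intermediate progenitors it was at 380, 595 and 589 CPM labelled E14, 465, 777 and 792 CPM labelled E16, and 450, 780 and 788 CPM labelled E18. The Ezh2 level of intermediate progenitors was above that of radial glia within each phase and library. Suz12 in radial glia was at 72.2, 121 and 132 CPM labelled E14, and the G2M level was 1.82, 1.97 and 1.68 times the G1 level in label order, with 1 CPM added.

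Jarid2 was lowest in S in intermediate progenitors: in those called G1, S and G2M it was at 18.7, 1.87 and 24.2 CPM labelled E14, 28.3, 11.5 and 37.9 CPM labelled E16, and 31.2, 13.4 and 51.2 CPM labelled E18. The S level labelled E14 rested on only 2 UMIs in 81 cells, and the G1 level labelled E16 on 7 UMIs. The log2 ratio of S over G1 in intermediate progenitors was -2.78 (-6.4 to -1.4), -1.23 (-2.77 to 0.28) and -1.16 (-1.73 to -0.72), with 6.23%, 11.3% and 2.42% of genes called lower. In radial glia it was -0.70 and -0.63 in the libraries labelled E16 and E18, and 0.15 (-1.07 to 1.46) in that labelled E14, from 82 cells in G1 and 96 in S. Dnmt3a in intermediate progenitors was highest in G1 and lower in G2M, at 40.7 against 18.9 CPM labelled E14 and 44.6 against 20.9 CPM labelled E18, both past 2-fold, but 44.5 against 43.5 CPM labelled E16, where only 31 cells were called G1. Of cells in these 2 classes, 4.4% to 12.1% lay within 0.05 of a phase boundary.

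Counted over members of at least 5 CPM, those past 2-fold higher in S than in G1 of radial glia were Ezh2 and Dnmt1 of 9 labelled E14 (7.46% of all genes were), Dnmt1 of 8 labelled E16 (4.62%) and Ezh2, Eed and Dnmt1 of 8 labelled E18 (4.75%). None was past 2-fold lower there, where 4.16%, 2.34% and 1.01% of genes were. In G2M over G1 of radial glia the higher ones were Ezh2 of 8 labelled E14 (6.78%), none of 8 labelled E16 (5.43%) and Ezh2 and Eed of 8 labelled E18 (5.38%), with none lower, where 3.42%, 2.91% and 1.34% of genes were.

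In S over G1 of intermediate progenitors Eed, Suz12 and Dnmt1 were past 2-fold higher of 9 labelled E14 (8.15% of all genes were), Suz12 and Dnmt1 of 8 labelled E16 (11.8%) and Dnmt1 of 8 labelled E18 (6.57%). Jarid2 was the 1 member past 2-fold lower in each. In G2M over G1 the higher ones were Eed, Suz12 and Dnmt1 labelled E14 (8.47%), Dnmt1 labelled E16 (11.8%) and Suz12 and Dnmt1 labelled E18 (7.79%). Dnmt3a was the 1 member past 2-fold lower labelled E14 (6.92%) and E18 (4.41%), and none was labelled E16 (10.1%).

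**Figure D4:**
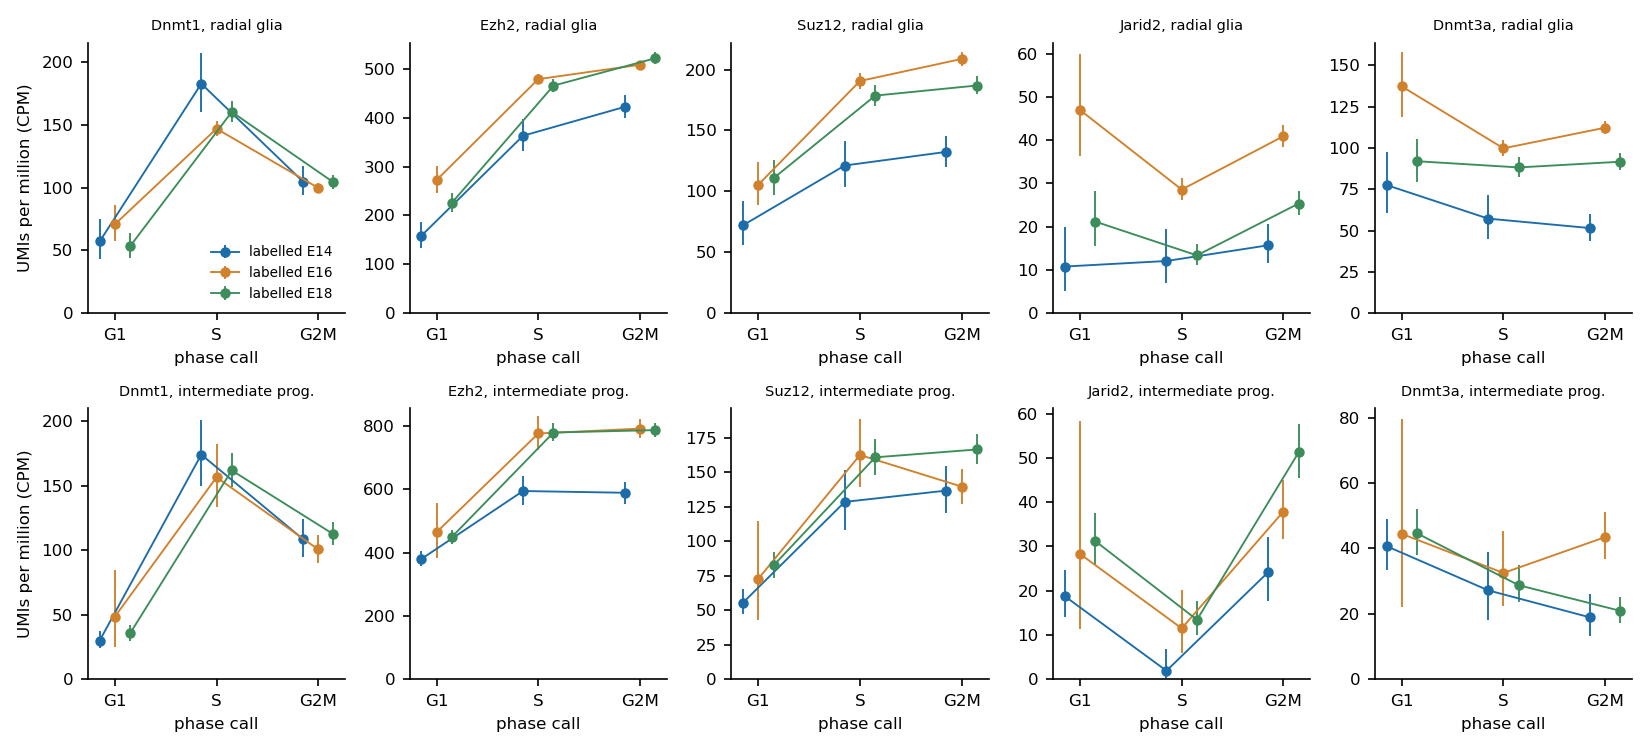
Levels (y axes, CPM, each from 0) of Dnmt1, Ezh2, Suz12, Jarid2 and Dnmt3a in cells called G1, S or G2M (x axes), for radial glia (top) and intermediate progenitors (bottom), coloured by library. Bars are exact Poisson 95% intervals, and lines join the 3 phases of 1 library. Dnmt1 peaks in S, Ezh2 and Suz12 are lowest in G1, and Jarid2 in intermediate progenitors dips in S.

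Between libraries, most members were at higher levels in the radial glia labelled E16 or E18 than in those labelled E14. In radial glia labelled E16 against those labelled E14, Jarid2 was past 2-fold higher, with a log2 ratio of 1.32 (1.05 to 1.74), as 1 of 8 members tested, where 2.42% of all genes were. Dnmt3a had 0.91 (0.75 to 1.09), Suz12 0.73 (0.62 to 0.86), Eed 0.56, Ezh2 0.43 and Tet3 0.35. Dnmt1 had 0.02 (-0.10 to 0.14) and Tet1 0.11 (-0.12 to 0.35), and none of the 8 was past 2-fold lower, where 7.29% of genes were. In the library labelled E18 against the same radial glia labelled E14, none was past 2-fold either way, where 1.04% of genes were higher and 3.38% lower. The values were Dnmt3a 0.65, Suz12 0.57, Jarid2 0.53, Tet1 0.53, Eed 0.52, Tet3 0.48, Ezh2 0.39 and Dnmt1 0.06. The median of the 8 was 0.50 labelled E16 and 0.52 labelled E18, beside -0.12 and -0.06 over all genes tested. Other lists also differed: replication genes were higher in 18 of 18 (median 0.30) labelled E16 and 16 of 18 (0.23) labelled E18, with none past 2-fold. Dissociation stress genes had a median of 0.13 over 4 tested labelled E16, and of 0.56 over 7 labelled E18, with 5 higher and 2 of them past 2-fold. Their part in the members' differences was not tested. These 2 comparisons share the radial glia labelled E14, a group of 362 cells, and with 10 CPM added Jarid2 labelled E16 over E14 had 0.95. Of the partner lists, Mbd2, a methyl-CpG reader (log2 ratio -2.17), Phf1, a PRC2 accessory subunit (-1.27), and Gadd45g (-1.001) were past 2-fold lower labelled E16 over E14.

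In radial glia labelled E18 against E16, a comparison without those cells, the log2 ratio was -0.79 (-0.96 to -0.68) for Jarid2, -0.26 (-0.33 to -0.19) for Dnmt3a and 0.42 (0.32 to 0.54) for Tet1, and none was past 2-fold, where 1.99% of genes were higher and 0.651% lower. The classes also differed in make-up: radial glia labelled E14 were mostly clusters 4 and 8 (201 and 153 cells), those labelled E16 clusters 1, 2 and 9 (1191, 1155 and 595) and those labelled E18 clusters 4, 8 and 9 (809, 647 and 201). Within cluster 8, labelled E18 over E14, Dnmt3a had 0.88 (0.63 to 1.17) and Jarid2 0.78, and within cluster 4 they had 0.45 and 0.08 (-0.42 to 0.62). Within cluster 9, labelled E18 over E16, Jarid2 had -0.81 (-1.18 to -0.49), close to its ratio over all radial glia. Eed and Dnmt1 were lower there, with -0.51 (-0.82 to -0.22) and -0.37 (-0.64 to -0.11), against -0.04 and 0.04 over all radial glia. Labelled E18 over E14, Dnmt1 had 0.24 (0.07 to 0.42) within cluster 8 and 0.05 (-0.135 to 0.24) within cluster 4.

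The Jarid2 difference between radial glia labelled E16 and E14 was past 2-fold within each phase. Its log2 ratio was 2.03 (1.15 to 3.25) within G1, 1.18 (0.53 to 2.06) within S and 1.33 (0.97 to 1.83) within G2M. For Dnmt1, with a ratio near 0 over all radial glia, the ratio was 0.31 (-0.19 to 0.82) within G1, -0.31 (-0.51 to -0.12) within S and -0.07 (-0.24 to 0.10) within G2M, and -0.12 with equal weights on the phases. In other classes Jarid2 was also higher in the libraries labelled E16 and E18 than in that labelled E14. Its ratio in intermediate progenitors was 0.82 labelled E16 over E14 and 0.96 labelled E18 over E14. Labelled E18 over E14 it was 0.75 in newborn neurons and 1.12 in maturing neurons. These classes held different clusters in the 2 libraries: maturing neurons were clusters 0 and 10 labelled E14 (1257 and 726 cells) and cluster 15 labelled E18 (352 cells), and newborn neurons were mostly cluster 3 labelled E14 (1126 cells) and clusters 5 and 7 labelled E18 (983 and 800 cells). The 1.12 was the 1 value past 2-fold among members of at least 5 CPM in these classes. In that comparison 3.4% of genes were past 2-fold higher and 2.16% lower. Intermediate progenitors differed in make-up too. Those labelled E14 were 307, 94 and 89 cells of clusters 6, 11 and 13. For those labelled E16 the numbers were 70, 191 and 152. Within cluster 6 Jarid2 was no higher labelled E16, with 11.6 CPM (4.68–24.0, from 7 UMIs) beside 15.6 CPM (11.6–20.5). Within clusters 11 and 13 it was higher, with 25.9 beside 9.86 CPM and 46.3 beside 33.1 CPM. The part of make-up and of phase in the 0.82 was not tested.

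No member of at least 5 CPM was past 2-fold in intermediate progenitors labelled E16 over E14, where 3.18% of genes were higher and 7.84% lower, nor labelled E18 over E14, with 0.851% and 2.37%, nor labelled E18 over E16, with 2.25% and 1.29%. None was in newborn neurons labelled E18 over E14, with 1.28% higher and 1.88% lower. Ezh2 in intermediate progenitors had log2 ratios of 0.66 (0.59 to 0.73) labelled E16 over E14 and 0.49 (0.43 to 0.56) labelled E18 over E14. Of these cells 55.5%, 7.6% and 34.3% in label order were called G1, where Ezh2 was lowest. Within G1, S and G2M it was at 380, 595 and 589 CPM labelled E14 and 465, 777 and 792 CPM labelled E16. The part of phase in these ratios was not tested. Dnmt1 in newborn neurons had 0.01 (-0.16 to 0.19) labelled E18 over E14, as near to 0 as in radial glia.

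**Figure D5:**
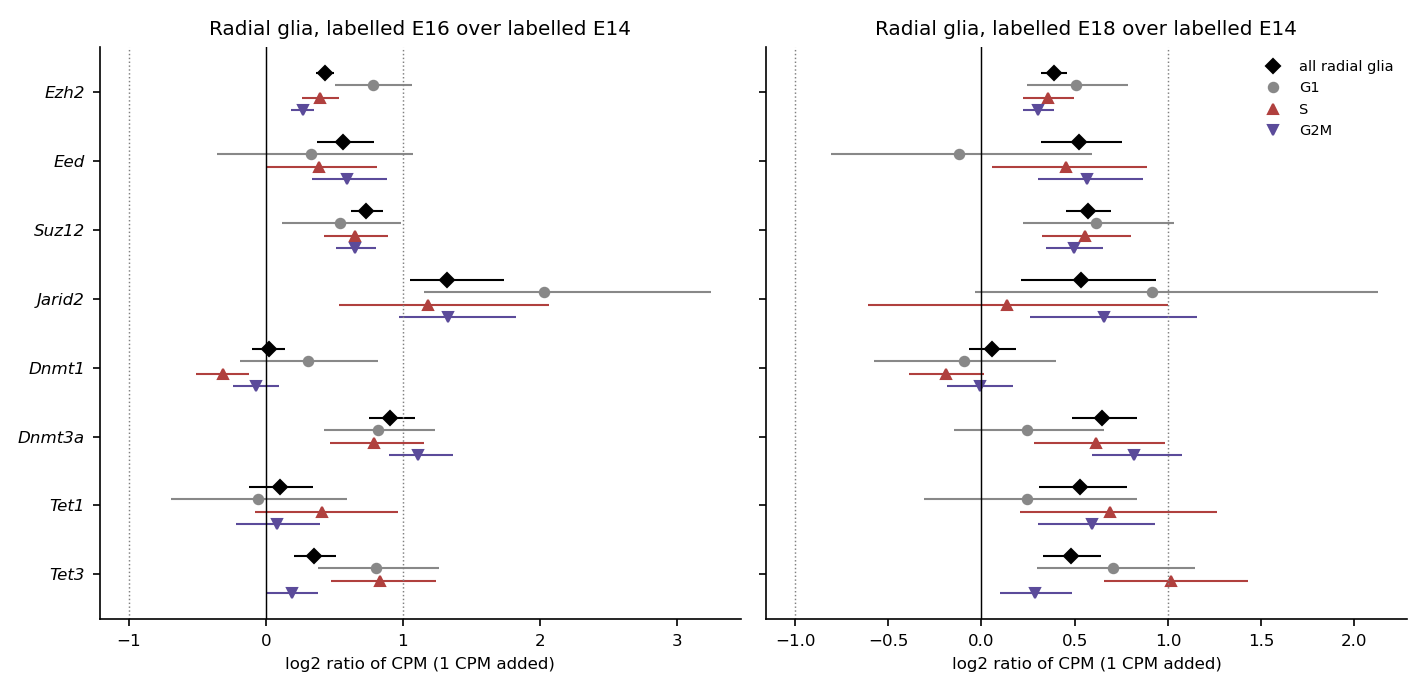
Log2 ratio of CPM, with 1 CPM added, between radial glia of 2 libraries for the 8 members of at least 5 CPM, over all radial glia (black diamonds) and within cells called G1, S or G2M. The left panel shows the library labelled E16 over that labelled E14 and the right panel that labelled E18 over the same cells labelled E14, lines are conditional exact binomial 95% intervals with nothing added, and dotted lines mark 2-fold. Jarid2 has the highest ratio in the left panel, at 1.32, and Dnmt1 over all radial glia lies near 0 in both.

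A few classes outside the excitatory lineage had levels beyond that range. Dnmt3a was highest in choroid plexus, the secretory epithelium of the ventricles, with 148 CPM in the library labelled E16 and 114 CPM, from 53 cells, in that labelled E18. Ezh2 was at 281 and 92.1 CPM there. Dnmt1 was at 99.2 and 92.3 CPM in meningeal fibroblasts of those libraries, close to progenitor levels. Erythroid cells labelled E16 had low values of most members, such as 11.96 CPM for Ezh2 and 2.20 CPM for Dnmt1, but 81.6% of their UMIs were globin. With globin left out of the total, the members did not run one way: Ezh2 was at 65.1 CPM and Dnmt1 at 11.95 CPM, below every excitatory class, while Eed was at 79.7 CPM and Ezh1 at 27.9 CPM, above every one. Suz12 was at 78.3 CPM there, between its neuron and progenitor levels.

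Pearson's correlation of log2 levels, with 1 CPM added, over 16 class-by-library sums of at least 100 cells named the genes whose pattern was most like each member's, as a description of points that share libraries and depth. The most alike were Pphln1 for Ezh2 (0.989), Gmps for Suz12 (0.976), Cenpo for Eed (0.971), Nup85 for Dnmt1 (0.992), B9d1 for Dnmt3a (0.977), Eif4enif1 for Tet1 (0.964), Fam168b for Tet3 (0.997) and the unnamed locus LOC120097015 for Jarid2 (0.914). The second most alike were LOC102556092, Ttf2, Shmt1, Brd7, Wdr19, Oxnad1, Dcaf7 and Tnrc6a in the same order of members. Ezh1 and Dnmt3b averaged under 5 CPM over these sums, and the genes most like them are not given. Without the erythroid point, over the other 15, only Pphln1 (0.954), B9d1 (0.963), Eif4enif1 (0.866) and Fam168b (0.971) stayed among the 2 most alike genes of their member, and LOC120097015 had 0.790 with Jarid2.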

How the data were processed

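Single-cell RNA was measured in 3 rat cortex libraries. The authors deposited UMI counts per gene and cell, made with Cell Ranger 6.0.1 per the file headers, and mRatBN7.2 is the build in the submitters' processing notes. Raw counts were used as deposited. Cells with at least 1000 genes and at most 10% mitochondrial UMIs were kept (4444, 5193 and 5690). Scrublet's own threshold marked 2.54%, 0.0385% and 2.65% of cells, so it had not worked at E16, and the top scores were removed instead, at 0.8% per 1000 cells (158, 216 and 259 cells).

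Clustering used 2000 variable genes without the members and lists, 30 principal components, 15 neighbours and Leiden resolution 1, on counts scaled to 10000. Names came from 117 markers of 15 classes, needing 3 markers raised 1.2-fold and detected in 20% of cells. The scoring rule, and the use of the unnamed cluster as the neurons labelled E16 (Stmn2 above Vim), were settled after the clusters had been seen. Counts were summed per class and library and given as CPM (UMIs per 1000000). Ratios had 1 CPM added, genes averaging under 5 CPM were left out of counts of calls, and a call means past 2-fold. Phases were scored with 41 S and 54 G2M genes in cells thinned to 2000 UMIs. Scripts were tested on simulated data.

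The members and lists were chosen with earlier results of these data known. Companion genes were named where past 2-fold the same way in all 3 libraries, and Mtf2, Kdm6a and the other-class examples were chosen after their values were seen. Alternatives were other cell filters, doublet removal, clustering, variable genes, pseudocounts, scaling and minimum levels, and 3 more were chosen after seeing the data: unnamed neurons pooled with newborn ones, ratios within clusters, and patterns without erythroid cells. Intervals cover counting error only. Promoters came from RefSeq (GRCr8), and protein sequences were not used here. Tools were Scanpy 1.11.5 with leidenalg 0.10.2 and igraph 0.11.9 under Python 3.11.15, with pandas 2.3.3, numpy 2.4.6, scikit-learn 1.9.0, scipy 1.17.1 and matplotlib 3.10.9.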

Additional observations from a re-analysis of the deposited data

How the results depend on the processing

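No paired analysis was possible because each label has 1 library. Counts here are of all 10 members past 2-fold, with no minimum level. For early neurons against radial glia, the 1 member higher in the library labelled E14 became 0 with 10 CPM added, at Leiden resolution 2, with doublet removal at 2 times the number or none, with libraries clustered singly and with members and lists among the variable genes. The 4 lower there became 0 under the stricter cell filter, which left 130 radial glia and 57 newborn neurons. The 1 higher in that labelled E16, Ezh1, became 0 with 10 CPM added and at Leiden resolution 0.5. For radial glia labelled E16 over E14, the 1 higher became 0 with 10 CPM added and 2 with no doublet removal and within G2M. The 0 lower there became 1 with 0.1 CPM added, at Leiden resolution 0.5 and 2, with doublet removal at 2 times the number, with each library on its own, with the looser filter, with members among the variable genes, within G1 and within S. For E18 over E14, the 0 higher became 1 within S and the 0 lower became 1 within G1. For E18 over E16, the 0 higher became 1 with 0.1 CPM added and the 0 lower became 1 within G1 and within S. Of these counts 136 others stayed within 1.5 times. Among list medians 2 reversed: mitosis genes in the library labelled E14, to 0.27 under the stricter filter, and stage genes in radial glia labelled E16 over E14, to 0.065 with no minimum level. The cause of these changes was not tested. Under the stricter filter only 7 cells labelled E16 were named radial glia, while 2901 were kept in other clusters that took no name. No value for radial glia of that label was therefore given under it. Levels near 5 CPM or below, as for Ezh1 and Dnmt3b, are limited by depth.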
